A study of Homo sapiens with 2 samples.

Results

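The genes described here were the 98 of 30238 genes on the array whose name began with GPR and a number, or was SUCNR1, the receptor for succinate. The rule used names alone, and was set with earlier results of these data known. The genes were read by 138 of 41000 probes and included GPR85. A2780 cells come from a human ovarian carcinoma. The line A2780CBN had been selected for survival in rising doses of carboplatin, a platinum drug that damages DNA, up to 22.2 uM. The line A2780CBNDXL had been selected in carboplatin together with docetaxel, a taxane that binds microtubules, and GEO's label gives 8.02 uM for that combination without a value for each drug. The study's own text places that figure elsewhere than at the end dose, so it is given here only as labelled. Each line was compared with A2780CC, drug-free A2780 cells carried in culture beside the resistant line. Per the study's methods a co-cultured control was made for each resistant line, while the labels use 1 name for both. Total RNA from 3 isolations was pooled for each sample, and each pair of pools was hybridized to 4 two-colour arrays, 2 with forward and 2 with reverse labelling, over 2 slides.

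Each line was therefore 1 pool of RNA against 1 pool. Spread is given as the SD over 4 arrays, a spread that holds the error of labelling and hybridization but not that between cultures, so cultures could not be tested against each other. A gene was counted as detected in a line when its probe stood well above background in the resistant channel, or in the control channel, on all arrays. It was counted as changed when it was detected, its log2 ratio (resistant over control) had the same sign on all arrays, and the mean was at least 1 in size, that is 2-fold. No spot was saturated, and 59.8% to 67.5% of spots per channel were above background. The arrays of a line with the same labelling correlated at r = 0.85 to 0.90, and those with opposite labelling at 0.58 to 0.74 after the reverse arrays had been turned. The labels give the forward dyes for every array, so the turning of the reverse arrays rests on their description and on these correlations. Of the epithelial and ovarian carcinoma markers, KRT8, KRT18 and EPCAM were detected in both lines. KRT7, CDH1, MUC16 and WT1 were detected in neither line. In A2780CBN 3 of 7 detected markers of that list were higher, EPCAM (2.07 ± 0.30), KRT18 (1.05 ± 0.16) and VIM (1.08 ± 0.67). EPCAM was the only one of 6 in A2780CBNDXL (1.67 ± 0.24). Of all detected genes, 7.77% were higher in A2780CBN and 7.52% in A2780CBNDXL. None of the 5 endothelial markers was detected in either line, nor was the leukocyte marker PTPRC. Of 9 leukocyte markers, 5 were detected in A2780CBN with none changed and 7 in A2780CBNDXL, where ITGAM was higher (1.87 ± 0.51), and the part of either marker list in the results was not tested. Because RNA was pooled from whole cultures, fewer cells carrying a transcript and less transcript per cell cannot be told apart.

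G protein-coupled receptors span the plasma membrane with 7 helices and pass a ligand signal to G proteins and arrestins, often by raising or lowering cyclic AMP. GPR names were given to receptors found by sequence before a ligand was known, and some later gained one: succinate for SUCNR1, protons for GPR4, long-chain and hydroxylated fatty acids for others. Other GPR-named proteins lie in the Golgi or lysosome or carry cargo, such as GPR177, which escorts Wnt proteins to the cell surface. Many of these genes are used mainly in brain, immune cells or sensory tissue.

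Short sequences show what the probes and upstream regions of the leading genes were. Rhodopsin-like receptors carry an aspartate-arginine-tyrosine triplet at the inner end of the third helix. The codons for it (GAC or GAT, then CGN, AGA or AGG, then TAC or TAT) were searched on the sense strand of each probe, in a frame without a stop codon. They were found in 2 of 138 probes of the family (1.45%) and in 41 of 41000 probes on the array (0.10%), and both are shown with those codons in capitals. The SUCNR1 probe lies on the plus strand at chr3:153081356-153081415 and the GPR31 probe on the minus strand at chr6:167490923-167490982, both in build NCBI36.
SUCNR1: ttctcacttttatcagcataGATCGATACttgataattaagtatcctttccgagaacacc
GPR31: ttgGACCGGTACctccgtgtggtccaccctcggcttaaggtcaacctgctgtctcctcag

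The 250 bases before the RefSeq start of the 4 changed genes with the largest measured log2 ratios are shown, with each CG dinucleotide in capitals (build GRCh38.p14). SUCNR1 reads on the plus strand from chr3:151873393-151873642, GPR85 on the minus strand from chr7:113087725-113087974, GPR158 on the plus strand from chr10:25174751-25175000 and GPR177 on the minus strand from chr1:68232524-68232773. They hold 0, 3, 31 and 14 CG dinucleotides.
SUCNR1: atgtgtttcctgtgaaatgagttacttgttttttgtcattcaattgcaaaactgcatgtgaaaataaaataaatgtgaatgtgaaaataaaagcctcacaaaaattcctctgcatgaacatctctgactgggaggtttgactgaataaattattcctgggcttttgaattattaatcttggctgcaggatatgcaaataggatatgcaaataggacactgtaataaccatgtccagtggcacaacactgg
GPR85: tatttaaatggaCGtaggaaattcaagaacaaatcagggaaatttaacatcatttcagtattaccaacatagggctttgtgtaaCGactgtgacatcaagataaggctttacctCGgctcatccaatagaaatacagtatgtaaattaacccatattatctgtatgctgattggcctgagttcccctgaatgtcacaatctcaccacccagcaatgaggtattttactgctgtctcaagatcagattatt
GPR158: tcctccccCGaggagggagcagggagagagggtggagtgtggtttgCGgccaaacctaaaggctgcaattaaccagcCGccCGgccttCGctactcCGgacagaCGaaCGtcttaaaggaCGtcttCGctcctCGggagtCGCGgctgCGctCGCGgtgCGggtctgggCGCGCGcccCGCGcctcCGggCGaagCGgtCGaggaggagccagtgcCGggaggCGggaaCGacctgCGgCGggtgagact
GPR177: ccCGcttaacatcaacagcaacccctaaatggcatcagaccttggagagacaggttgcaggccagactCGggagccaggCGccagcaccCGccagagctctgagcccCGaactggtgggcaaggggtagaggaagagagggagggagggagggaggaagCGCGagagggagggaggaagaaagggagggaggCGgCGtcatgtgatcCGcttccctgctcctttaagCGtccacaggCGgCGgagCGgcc
The RefSeq table held the window of 300 bases around the start (250 before, 50 after) for 68 of the 98 genes. CG was counted in that window, on 1 strand since it reads the same on both. The median was 10 CG in the family and 14 over 27305 promoters. It was 22 among the 32 family genes detected in at least 1 line and 5.5 among the 36 detected in neither, and 71.9% and 36.1% of these held 10 CG or more, against 56.0% of all promoters. SUCNR1, with 0 CG, and GPR85, with 3, lay in the lower part of the range of 0 to 51 among the detected genes.

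The family was detected less widely than the array as a whole. In A2780CBN 44 of 98 family genes (44.9%) were detected, against 18600 of 30238 genes (61.5%). In A2780CBNDXL it was 40 of 98 (40.8%) against 17901 (59.2%). Over both lines, 36 family genes were detected in each of them, 48 in at least 1, and 50 in neither. The detected share differed between receptor classes. All 3 constitutively active Gs-coupled receptors (GPR3, GPR6 and GPR12) were detected in both lines. GPR3 and GPR6 were dim, with mean signals of 34.1 to 45.1 and 38.0 to 42.7. The second GPR3 probe was undetected in both lines. GPR-named proteins with other or non-receptor roles were detected in 11 of 11 cases in A2780CBN and 8 of 11 in A2780CBNDXL. Adhesion receptors, which carry long extracellular domains, were detected in 5 of 18 cases in each line. None of 7 receptors for lysophospholipids, cannabinoid-like lipids or oxysterols (GPR18, GPR55 and GPR183 among them) was detected in either line.

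**Figure D1:**
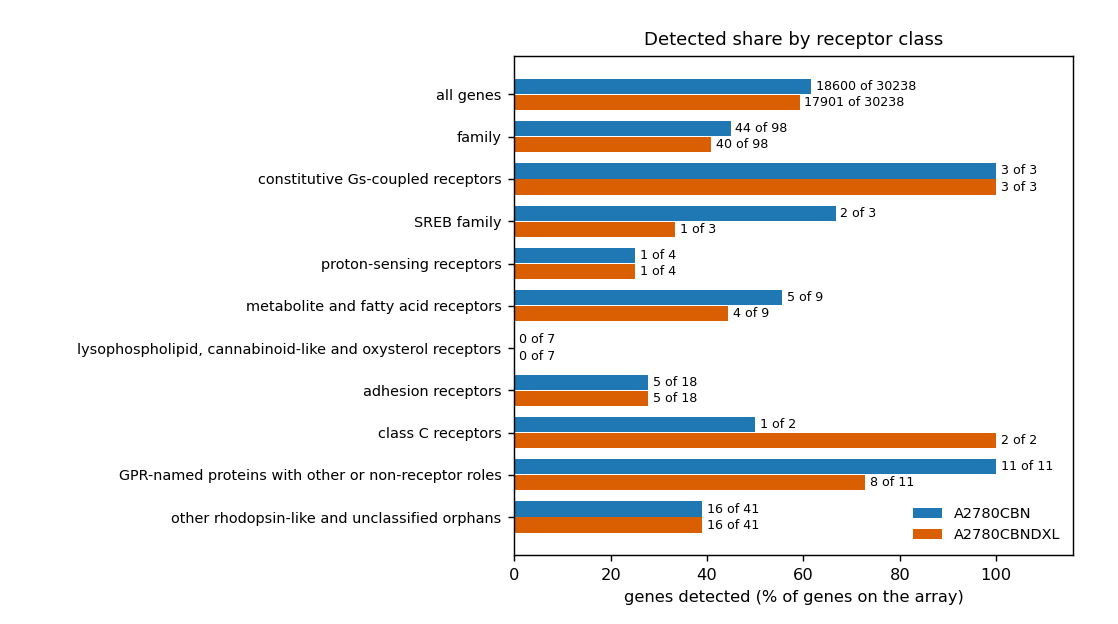
Bars give the percentage of genes on the array that were detected in A2780CBN (blue) and A2780CBNDXL (orange), for all genes, the family and each receptor class, with the counts beside the bars. The family stood at 44.9% and 40.8%, below 61.5% and 59.2% for all genes, and the lipid receptor class stood at 0 of 7 in both lines.

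In A2780CBN 6 of the 44 detected family genes were changed (13.6%), beside 12.2% of all detected genes, so the share was close to the background. GPR85, GPR177, GPR155, GPR56 and GPR4 were higher and GPR157 was lower. The array background was 7.77% higher and 4.43% lower. In A2780CBNDXL 13 of 40 were changed (32.5%), beside 16.5% of all detected genes. The 7 higher genes were GPR85, SUCNR1, GPR158, GPR137, GPR137C, GPR126 and GPR108 (7.52% of all genes were higher), and the 6 lower ones were GPR137B, GPR160, GPR4, GPR161, GPR162 and GPR157 (8.99% were lower). The median log2 ratio of the detected members was -0.04 in A2780CBN and 0.14 in A2780CBNDXL, beside -0.06 and 0.04 over all detected genes. Within 0.5 of zero on the log2 scale lay 33 of 44 detected members in A2780CBN and 15 of 40 in A2780CBNDXL. Over all detected genes it was 12455 of 18600 and 10774 of 17901. With normexp background correction and loess in place of the deposited processed signals, no family gene was counted as changed in A2780CBN and 7 were in A2780CBNDXL. That setting adds 50 to every signal and so draws the ratios of dim probes towards zero.

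**Figure D2:**
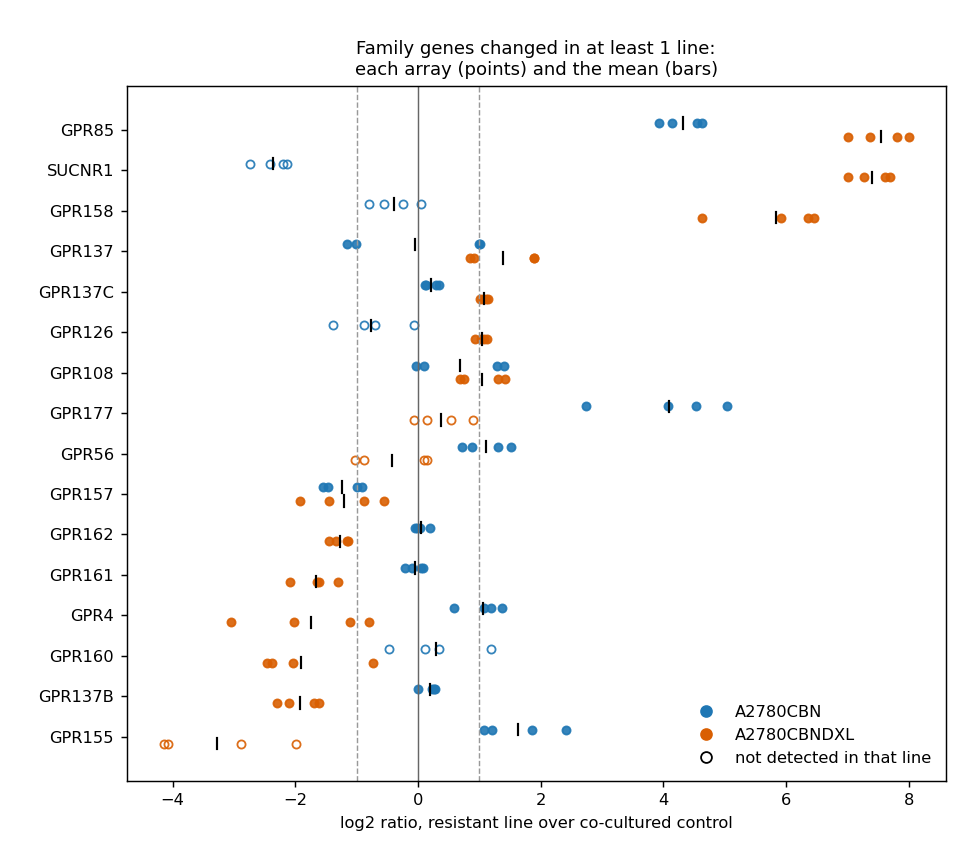
Points are the log2 ratios (resistant line over co-cultured control) of single arrays for the 16 family genes changed in at least 1 line, bars are their means, and open points mark a line in which the gene was not detected. Dashed lines mark 2-fold. GPR85 lay to the right in both lines, SUCNR1 and GPR158 in A2780CBNDXL, and GPR177 in A2780CBN.

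Among the metabolite receptors, SUCNR1 was higher in A2780CBNDXL. SUCNR1 couples mainly to Gi and Gq and responds to extracellular succinate, an intermediate of the citric acid cycle. On the 4 arrays its processed signal was 16502, 17602, 16578 and 13194 in A2780CBNDXL and 79.9, 136, 84.4 and 84.9 in its control. Neither channel fell to background on any of the 4 arrays, and the values of the groups were far apart. The log2 ratio was 7.40 ± 0.31 (SD, 4 arrays), or 169-fold. The probe with the aspartate-arginine-tyrosine codons gave 6.45 ± 0.72, with the control below background on all arrays, so that the bound there was at least 49.3-fold.

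In A2780CBN the SUCNR1 signal was 5.34, 5.90, 5.24 and 5.18, against 35.6, 27.0, 23.1 and 27.5 in its control. The resistant channel stayed at background throughout and the control rose well above it on 2 of 4 arrays, so SUCNR1 was not counted as detected there. The measured log2 ratio was -2.37 ± 0.27, and the bound was at least 1.28-fold lower. The second SUCNR1 probe gave 0.05 ± 0.06 in A2780CBN, with both channels below background, and does not show this difference.

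Of the other 8 metabolite and fatty acid receptors, 5 were detected in A2780CBN and 3 in A2780CBNDXL, and none was changed. Of the enzymes and carriers that make, use or move succinate, 13 of 14 were detected in each line. The 1 changed in each (beside 12.2% and 16.5% of all detected genes) was the plasma membrane dicarboxylate carrier SLC13A3. Its log2 ratio was -2.52 ± 0.59 in A2780CBN, where the resistant channel was below background (at least 1.65-fold lower), and 2.52 ± 0.12 in A2780CBNDXL. The list's median was -0.14 and -0.07.

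The SREB family, 3 receptors conserved between vertebrates and used mainly in brain, held GPR85, which was higher in both lines. GPR85 gave 109, 97.2, 81.3 and 110 in A2780CBN and 4.64, 5.51, 5.31 and 4.44 in the control, which was below background on all arrays. Its log2 ratio was 4.31 ± 0.33, and the bound was at least 4.44-fold. In A2780CBNDXL the signal was 2787, 3449, 3408 and 2790 against 10.9, 26.7, 15.3 and 16.9, a measured log2 ratio of 7.55 ± 0.44. The control there was above background on 1 of 4 arrays, so the size of this ratio rests mostly on dim control signals. No resistant value lay near a control value in either line. The second GPR85 probe gave 7.62 ± 0.21 in A2780CBNDXL, at least 71.1-fold. In A2780CBN it gave 2.17 ± 0.40 but was above background on 1 array only, and under normexp the first probe's ratio there fell to 0.51. The resistant channels, above background on all arrays of both lines, differed by 4.90 ± 0.25 on the log2 scale after scaling across arrays, with A2780CBNDXL higher. Of the other SREB receptors, GPR27 was not detected and GPR173 was detected in A2780CBN only, at -0.37 ± 0.17.

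**Figure D3:**
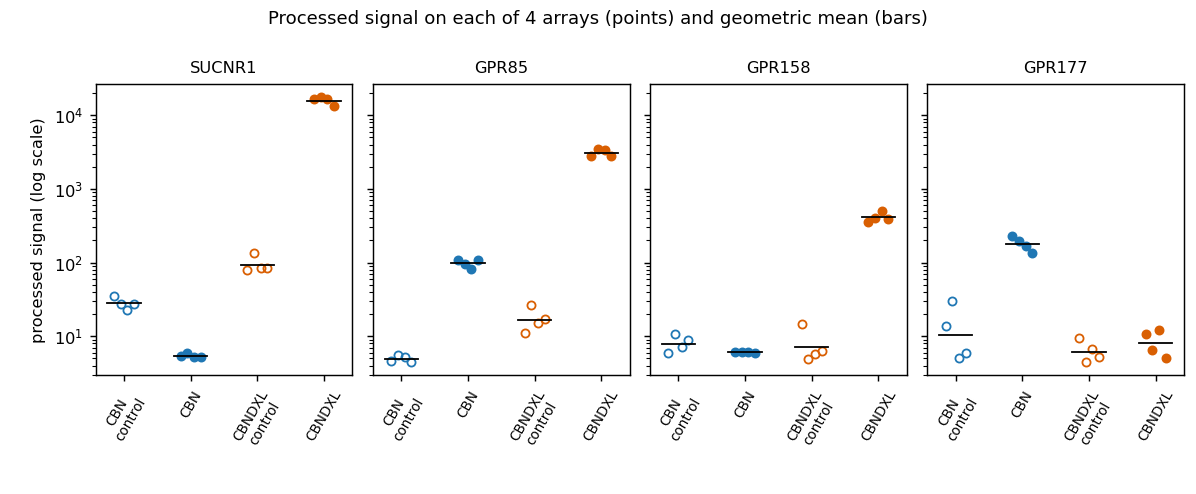
Processed signal on a log scale for SUCNR1, GPR85, GPR158 and GPR177 on each array, with controls as open points, resistant lines as filled points and bars for the geometric mean of 4 arrays. The A2780CBNDXL points of SUCNR1 lie between 13194 and 17602, and its A2780CBN points lie at 5.18 to 5.90.

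GPR158 and GPR177 were each raised in 1 line and undetected in the other. GPR158 is a class C receptor of the brain that binds glycine and has a large extracellular part. It gave 357, 406, 502 and 387 in A2780CBNDXL against 14.4, 4.96, 5.70 and 6.38 in the control, which was below background on all arrays. The log2 ratio was 5.84 ± 0.84, and the bound was at least 20.8-fold. All 8 channel values of GPR158 in A2780CBN were below background, between 5.84 and 10.6. GPR177, named WLS in RefSeq, gave 229, 199, 168 and 136 in A2780CBN against 13.6, 29.7, 5.09 and 5.91, a log2 ratio of 4.10 ± 0.99, with 1 control array above background, so its size rests mostly on dim control signals. Under normexp its ratio was 0.71 and no longer counted as changed. In A2780CBNDXL its signals were 5.03 to 12.3 in the resistant line and 4.45 to 9.61 in the control, and none was above background.

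The proton-sensing receptor GPR4 was the gene counted as changed in opposite directions. The array-wide share of such genes was 1.73%. GPR4 gave 101, 104, 121 and 103 in A2780CBN against 67.5, 49.4, 53.4 and 40.0, a log2 ratio of 1.05 ± 0.33. In A2780CBNDXL it gave 10.2, 75.9, 45.2 and 13.9 against 84.3, 131, 97.4 and 56.0, a log2 ratio of -1.74 ± 1.01. The groups did not overlap in A2780CBN and overlapped in A2780CBNDXL, where the lower sign held within each array. The second GPR4 probe gave 1.34 and -0.88, the latter undetected. Without array 3 or array 4 the A2780CBN ratio was 0.90 or 0.98 and passed below 2-fold. The proton-sensing receptors GPR65 and GPR132 were not detected.

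GPR155, a cholesterol-sensing protein of the lysosome, also had opposite signs on all arrays of the lines. It gave 66.5, 65.8, 58.7 and 82.6 in A2780CBN against 28.7, 18.2, 27.9 and 15.5, a log2 ratio of 1.64 ± 0.62. In A2780CBNDXL they were 9.49, 6.35, 12.8 and 5.96 against 37.8, 107.3, 95.02 and 105, at -3.28 ± 1.03, with the control above background on 3 of 4 arrays. It was therefore not counted as detected in that line, although the values did not overlap (at least 3.55-fold lower). The second GPR155 probe passed the rule in both lines, at 1.45 ± 0.76 and -2.78 ± 0.47 (at least 2.07-fold lower).

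Among adhesion receptors, GPR56 (ADGRG1 in RefSeq) was higher in A2780CBN and GPR126 (ADGRG6), known for its part in myelination, in A2780CBNDXL. GPR56 gave 192, 233, 193 and 254 against 117, 81.1, 105 and 103, a log2 ratio of 1.11 ± 0.37. In A2780CBNDXL it was undetected, at -0.42 ± 0.63. Its second probe gave 0.72 ± 0.32 in A2780CBN, below 2-fold. GPR126 gave 165, 232, 165 and 156 in A2780CBNDXL against 80.7, 122, 75.9 and 73.8, a log2 ratio of 1.04 ± 0.08. In A2780CBN it was undetected, at -0.76 ± 0.55. The other probes of GPR126 were undetected in A2780CBNDXL and gave 0.59 and 1.05.

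The lysosomal and Golgi proteins moved in different directions in A2780CBNDXL. GPR137B, which sits in the lysosome membrane and acts on mTORC1, gave 136, 161, 167 and 127 against 414, 688, 543 and 622, a log2 ratio of -1.92 ± 0.33. Its relatives GPR137 and GPR137C rose, by 1.39 ± 0.59 and 1.08 ± 0.06. In A2780CBN the ratios of the 3 genes were 0.19, -0.04 and 0.22. GPR137 followed the dye there: its forward arrays gave 0.99 and 1.01 and its reverse arrays -1.01 and -1.15. In A2780CBNDXL it also split by labelling, with 0.85 and 0.92 on forward arrays and 1.90 and 1.90 on reverse arrays. Its forward arrays thus lay below 2-fold in that line. The Golgi protein GPR108 rose to 1.04 ± 0.37 in A2780CBNDXL and passed just under 2-fold under normexp (0.86) and with median-centred background-subtracted signals (0.99). GPR108 split by labelling as well, with 0.69 and 0.74 on forward arrays and 1.3 and 1.4 on reverse arrays. Its forward arrays thus lay below 2-fold too. In A2780CBN it was not changed, at 0.69 ± 0.76. Forward arrays there gave 1.29 and 1.40 and reverse arrays 0.10 and -0.03. GPR107, also of the Golgi, was read differently by its probes. The brighter probe gave 0.41 ± 0.13 in A2780CBN and 0.81 ± 0.04 in A2780CBNDXL, and the other -1.40 ± 0.26 and -0.61 ± 0.08, so no direction is given for this gene.

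The class of other rhodopsin-like and unclassified orphans, which held 16 of the 40 members detected in A2780CBNDXL, held 4 of the 6 lower genes. GPR161, a receptor of the primary cilium that holds back Hedgehog signalling, gave 325, 303, 428 and 379 against 1378, 924, 1342 and 938, a log2 ratio of -1.66 ± 0.32. Its other probes gave -2.81 ± 0.10 and -2.32 ± 0.50. In A2780CBN all 3 GPR161 probes stayed between -0.34 and -0.04. GPR162, an orphan receptor, gave 613, 870, 769 and 876 against 1686, 1925, 1932 and 1949, at -1.27 ± 0.15, and its second probe gave -0.62 ± 0.75. GPR160 stood at -1.90 ± 0.80, with the resistant channel above background on 1 array, where it gave 52.5 against 5.86 to 10.8 on the others. GPR157 fell by a like mean amount in both lines: -1.23 ± 0.32 in A2780CBN and -1.20 ± 0.61 in A2780CBNDXL. The size split by labelling in both. In A2780CBN forward arrays gave -1.54 and -1.47 and reverse arrays -0.99 and -0.92. In A2780CBNDXL forward arrays gave -1.93 and -1.45 and reverse arrays -0.55 and -0.88. The reverse arrays thus lay below 2-fold in both lines. The second GPR157 probe gave -0.32 and -0.68 and was not counted as changed in either line. GPR20 was at 0.51 and 0.85 on its brighter probe but at 1.98 ± 0.67 and 1.54 ± 0.08 on its other probe. GPR135 was at -0.14 in A2780CBNDXL, where its further probes gave 0.49 and 0.36.

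Between the lines, 2 family genes changed in the same direction, GPR85 and GPR157 (3.78% of the 17427 genes detected in both lines did so). Of the 48 members detected in at least 1 line, 3 passed the rule in A2780CBN alone and 10 in A2780CBNDXL alone, beside 6.86% and 10.5% of all 19074 such genes. The log2 ratio differed by at least 1 with no overlap of arrays for 13 of the 48 members detected in at least 1 line, beside 17.5% of all such genes. In 7 of the 13 the gene was not detected in 1 of the lines, so the size of the difference rests there on dim signals. SUCNR1, GPR158, GPR85 and GPR126 had the higher ratio in A2780CBNDXL. GPR155, GPR177, GPR4, GPR160, GPR137B, GPR84, GPR161, GPR56 and GPR162 had the higher ratio in A2780CBN. GPR84, a receptor for medium-chain fatty acids, was detected in both lines and lay at 0.68 ± 0.36 and -0.94 ± 0.17, so that it differed between the lines without passing 2-fold in either.

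**Figure D4:**
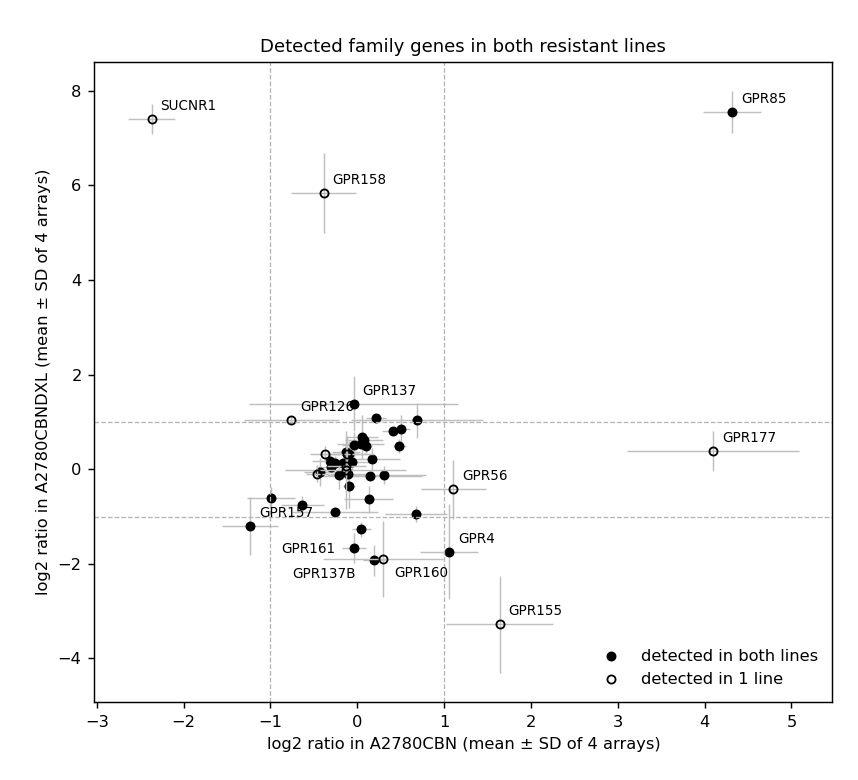
Each point is 1 of 48 family genes detected in at least 1 line, at its log2 ratio in A2780CBN (horizontal) and A2780CBNDXL (vertical), with the SD of 4 arrays as bars and open points for genes detected in 1 line. Most points lie within 1 of zero, GPR85 lies at 4.31 and 7.55, and SUCNR1 lies at -2.37 and 7.40.

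Genes that lie beside the leading members on NCBI36 were also read, from probes starting within 500 kb. The GPR85 probe lies at chr7:112510709-112510768 on the minus strand. Of its 4 neighbours, all detected in A2780CBNDXL, 3 were higher in that line, beside 7.52% of all detected genes. C7orf60 was at 2.93 ± 0.39, LOC401397 at 1.33 ± 0.20 and an unnamed probe between C7orf60 and GPR85 at 3.53 ± 1.27. TMEM168 was at 0.42 ± 0.32. In A2780CBN none of the 3 detected neighbours was changed while GPR85 was. The SUCNR1 probe lies at chr3:153082100-153082159 on the plus strand. Of its 9 neighbours, 3 were detected in A2780CBNDXL. IGSF10 was higher at 2.43 ± 0.22, and MED12L, within whose span several P2Y receptor genes lie, was lower at -1.35 ± 0.57 (-1.0015 ± 0.35 in A2780CBN). AADAC and AADACL2, nearest to SUCNR1, were detected in neither line. The single neighbour of GPR158 was undetected. Of the 10 detected neighbours of GPR137C in A2780CBNDXL, 5 were lower and 1, PTGER2, was higher (4.05 ± 0.22), while GPR137C itself was higher. Of all detected genes, 8.99% were lower and 7.52% higher in that line. Neighbours of the changed members not named in this paragraph are left out.

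**Figure D5:**
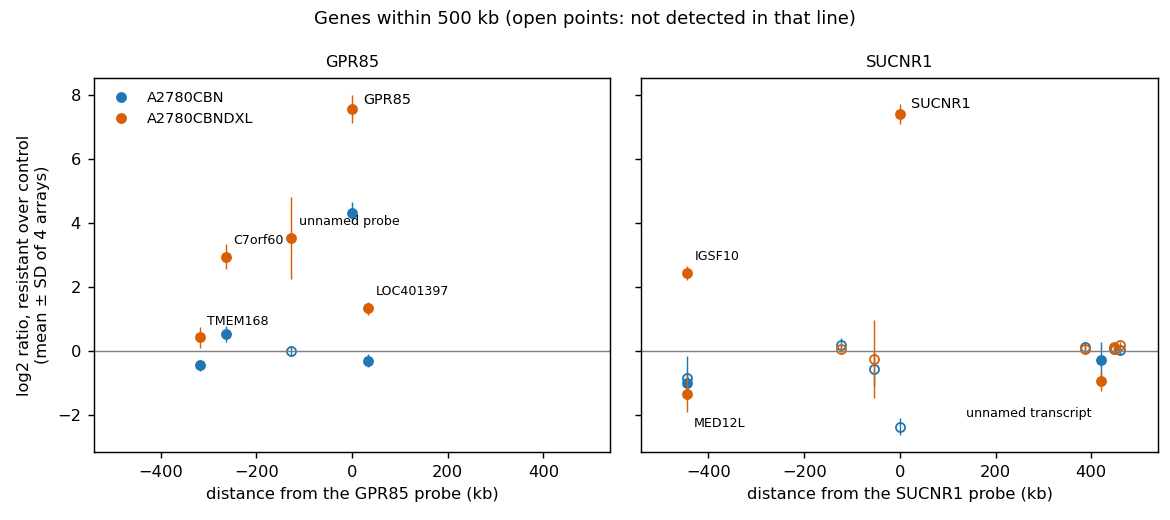
Log2 ratios (mean ± SD of 4 arrays) of genes whose probes start within 500 kb of the GPR85 probe (left) and the SUCNR1 probe (right), against distance in kb, in A2780CBN (blue) and A2780CBNDXL (orange). Beside GPR85, C7orf60 (2.93), the unnamed probe (3.53) and LOC401397 (1.33) were higher in A2780CBNDXL, and beside SUCNR1 only IGSF10 (2.43) was.

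Genes that act with these receptors were read as lists, to be set beside the 12.2% and 16.5% of all detected genes that were changed. Of 17 receptor kinases, arrestins and sorting proteins, 11 were detected in each line. In A2780CBN ARRDC3 (1.19 ± 0.28) and GPRASP2 (1.05 ± 0.24) were higher, and in A2780CBNDXL ARRB1, which encodes beta-arrestin 1, was lower (-1.82 ± 0.43). The list's median was 0.18 and -0.04. Of 10 adenylyl cyclases, which make cyclic AMP, 6 and 4 were detected, and the one changed was ADCY5 in A2780CBN at 3.23 ± 0.52 (at least 3.32-fold). Of 21 cyclic AMP effectors and phosphodiesterases, 1 of 15 detected genes was changed in A2780CBN, the regulatory subunit PRKAR1A (1.03 ± 0.08). In A2780CBNDXL 5 of 17 were changed, 3 higher and 2 lower (7.52% and 8.99% of all detected genes). The phosphodiesterases PDE4B (5.57 ± 0.67, at least 20.9-fold) and PDE3A (2.88 ± 0.67) were higher and PDE4A (-1.25 ± 0.03) was lower. The medians of this list were -0.24 and 0.0045.

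Of 14 adhesion receptors with other names, 10 were detected in each line, with 2 changed in A2780CBN and 3 in A2780CBNDXL, beside the same array-wide shares. EMR1 was higher in both (2.34 ± 0.74, at least 3.12-fold, and 2.87 ± 0.22), CD97 was higher in A2780CBNDXL (1.78 ± 0.24), and BAI3 was higher in A2780CBN (1.56 ± 0.31) and lower in A2780CBNDXL (-2.64 ± 0.58, at least 3.58-fold). Of the 12 P2Y receptors and genes beside SUCNR1, 3 and 5 were detected, with 1 and 3 changed. In A2780CBN the changed gene was MED12L, and no P2Y receptor was changed. In A2780CBNDXL the changed genes were MED12L, IGSF10 and the ADP receptor P2RY1. MED12L and IGSF10 are the SUCNR1 neighbours given above. P2RY1 was higher in A2780CBNDXL at 4.38 ± 0.59 (at least 6.63-fold). Of 8 GPRC5, GPRC6 and GPRIN genes, 5 were detected in each line and 1 was changed in each, GPRC5C, at 2.11 ± 0.43 in A2780CBN and -1.34 ± 0.06 in A2780CBNDXL. For these 3 lists, in that order, the median log2 ratio in A2780CBN was 0.40, -0.69 and 0.06. The A2780CBNDXL medians were 0.14, 0.58 and 0.23.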

How the data were processed

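Scanner files of 8 two-colour Agilent whole human genome arrays were read. The deposited intensity values had been background-corrected and dye-normalized by the authors with Agilent Feature Extraction (10.7.1.1 on slide 1, 10.7.3.1 on slide 2, per the file headers), and the log10 ratios deposited beside them were read for comparison only. The study's methods used Partek for an ANOVA. Here log2 ratios of the processed signals were turned to resistant over control, averaged within forward and reverse labelling and then over both. Control spots and spots rejected by Feature Extraction were left out, which was decided after seeing the data, and at least 3 arrays had to remain. Where a gene had several probes, the brightest on average was used. A bound ("at least") compared the bright channel's mean with the higher of the dim signal and the lowest signal above background, after scaling by limma 3.58.1 (R 4.3.3). Members were the genes named by the rule. Named genes were SUCNR1, GPR85, every changed member, members whose probes disagreed in sign or call where detected, and at most 4 changed genes a list. GPR84, GPR173 and neighbouring genes were named after their values were seen. The members and lists were chosen with earlier results of these data known. All 98 members matched RefSeq. Alternatives were other background corrections, single slides, left-out arrays, other filters, fold limits of 1.5 and 3, limma, and a three-way ANOVA at adjusted p of 0.05. Both fits were run on simulated ratios with known changes, and the outcome is not given here. For the ANOVA each gene's signal level was held constant across the simulated arrays, unlike in the data. A few genes are not reported here by name.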

Additional observations from a re-analysis of the deposited data

Results flagged for a closer look

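In 6 of the 48 members detected in at least 1 line, all arrays of A2780CBN and of A2780CBNDXL lay on opposite sides of zero. The share of all genes that did so was not counted, so the number is not a result about the family. The difference itself was not tested because each line was 1 pool of RNA. The difference in log2 ratio, A2780CBNDXL minus A2780CBN, was 9.77 for SUCNR1, -4.91 for GPR155, -2.79 for GPR4, 1.80 for GPR126, -1.62 for GPR84 and 0.70 for GPR173. SUCNR1 and GPR126 were undetected in A2780CBN, and GPR155 (on the probe that stood for it) and GPR173 in A2780CBNDXL, so that for these 4 genes the sign and size in 1 line rest on dim signals. For GPR137B in A2780CBN 1 of 4 arrays, at -0.0002, stood apart from the others at 0.23 to 0.27. Chance flags about 1 in 20 groups of this kind.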

How the results depend on the processing

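The number of members changed was 6 in A2780CBN and 13 in A2780CBNDXL. With normexp and loess it was 0 and 7, with both channels required above background 3 and 8, at 3-fold 3 and 7, at 1.5-fold 9 and 22, and over probes in place of genes 10 and 19. Leaving out 1 array gave 5 to 7 and 13 to 15. The fits over arrays, which measure labelling and hybridization error only, gave 6 and 13 (limma) and 6 and 11 (ANOVA). Members changed in the same direction numbered 2, with 0 under normexp and 0 with both channels above background, 4 at 1.5-fold and 1 at 3-fold, and 2 without each array in turn. Members changed in opposite directions numbered 1, with 0 under normexp, with both channels above background, at 3-fold and on slide 1 alone, 2 on slide 2 alone, with the mean over probes and at 1.5-fold, 3 without the filter, and 0 to 2 when 1 array was left out (0 without array 3 or array 4, 2 without array 1). Members that differed between the lines numbered 13, and 6 under normexp, and 13 without each array in turn. Without the filter the detected share is 100% by construction. Counting rejected spots as not above background, an alternative chosen after seeing the data, kept the counts at 6 and 13 and gave 42.9% and 40.8% detected. GPR107 in A2780CBN turned from 0.41 to -1.40 on its other probe. Of 269 alternative values for named genes, 244 stayed on their side of the 2-fold limit. Of 280 counts in gene lists, 227 moved by at most 1.5 times. Weak signals limit the dim members, and the cause of these shifts was not tested. No paired analysis was possible because each line is 1 sample.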
